A study of Mus musculus with 6 samples.

Results

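Selectins and their partners are the molecules with which circulating blood cells hold on to the vessel wall. The 9 genes described here encode the E- and P-selectins (Sele, Selp), the main selectin ligand PSGL-1 (Selplg), immunoglobulin-type adhesion receptors (Icam1, Icam2, Vcam1) and proteins of the junctions between endothelial cells (Pecam1, Cdh5, Esam). They are 9 of the 43346 genes in a table of RNA-seq counts, and all 9 passed the filter on low counts. They were chosen by name, with the differences between radiated and non-radiated femur in these same libraries already known. Every difference between the 2 groups, its p-value and its call is therefore a description of these genes and not independent evidence.

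The libraries came from C57BL/6 mice, an inbred laboratory strain, aged 4 months. A 5 mm stretch of the distal metaphysis of the right femur, the marrow-rich end of the bone shaft, received 24 Gy of X-rays in a single session, and the left femur of the animals was the non-radiated control. Bone with its marrow was collected on day 21, after muscle had been cut away, in 3 radiated and 3 non-radiated libraries. Both groups thus come from animals that had a radiated leg, and no animal without radiation is among them. The time was set before bone loss could be seen, so the comparison concerns transcripts that differed ahead of it.

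In the vessel wall, selectins catch leukocytes from the flow, binding sugar-bearing ligands such as PSGL-1, and the cells roll. Integrins on the leukocyte then bind Icam1, Icam2 and Vcam1 proteins for firm arrest, and the cells pass through junctions held by VE-cadherin (Cdh5), PECAM-1 and ESAM. In marrow, sinusoidal endothelium carries E-selectin and VCAM-1 without inflammation, and these serve the homing of blood stem cells. Several of these genes are also active outside the endothelium: P-selectin is stored in platelet and megakaryocyte granules, PECAM-1 and ESAM are found on platelets, PSGL-1 is on most leukocytes, and VCAM-1 is on marrow stroma and macrophages.

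Total gene counts ran from 34034251 to 48708383 per library. In non-radiated library 2 a single row, AY036118, took 32.9% of the counts, against 5.61% or less for the leading row of any other library. The quasi-likelihood test of edgeR was run on 18757 genes and called 1463 at a Benjamini-Hochberg adjusted p under 0.05 (7.8%), 856 of them higher (4.56%) and 607 lower (3.24%) in radiated femur. Higher genes were 58.5% of the calls, and 85.4% when libraries were scaled by their totals alone, which moved the median over all genes from 0.00 to 0.19 on the log2 scale. Groups without overlap were found for 25.9% of all tested genes.

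Of the 9 genes, 4 were called, beside that background of 7.8%. Sele, Selp and Esam were lower in radiated femur (3 genes, against 3.24% of all genes) and Icam1 was higher (1 gene, against 4.56%). There was no overlap between groups for 8 of the 9, all but Selplg, beside 25.9% of all tested genes. The log2 fold change was positive for 5 and negative for 4, with a median of 0.20, against 0.00 over all genes tested.

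Promoter windows from RefSeq (build GRCm38.p6), reaching from 250 bases before to 50 bases after a gene's start, were on hand for 3 of the 9 genes. These are 3 of the 4 called genes, and they are shown because the fall of the selectins and the rise of Icam1 are the differences described below. Each is written 5′ to 3′ on the gene's own strand, which is the plus strand for all 3, and capitals mark matches to 4 motifs searched on both strands: TATAAA (the core of the box bound by TBP), GGNNTTTCC (a part of the kappa-B site of NF-kB), AGATAA (the motif of GATA factors) and AGGAAG (ETS factors). The windows are chr1:164047984-164048283 for Sele, chr1:164115014-164115313 for Selp and chr9:21015690-21015989 for Icam1.
Sele: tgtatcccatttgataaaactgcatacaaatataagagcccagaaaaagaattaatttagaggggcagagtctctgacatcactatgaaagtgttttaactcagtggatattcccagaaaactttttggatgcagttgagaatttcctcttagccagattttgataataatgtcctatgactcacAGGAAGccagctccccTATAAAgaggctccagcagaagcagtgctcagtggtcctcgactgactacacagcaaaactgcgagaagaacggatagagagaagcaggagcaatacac
Selp: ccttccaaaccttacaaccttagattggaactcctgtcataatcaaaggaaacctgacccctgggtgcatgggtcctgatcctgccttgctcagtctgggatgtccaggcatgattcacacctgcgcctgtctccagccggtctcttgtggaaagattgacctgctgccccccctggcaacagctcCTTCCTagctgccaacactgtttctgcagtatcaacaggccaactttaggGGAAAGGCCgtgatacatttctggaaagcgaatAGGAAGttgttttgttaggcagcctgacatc
Icam1: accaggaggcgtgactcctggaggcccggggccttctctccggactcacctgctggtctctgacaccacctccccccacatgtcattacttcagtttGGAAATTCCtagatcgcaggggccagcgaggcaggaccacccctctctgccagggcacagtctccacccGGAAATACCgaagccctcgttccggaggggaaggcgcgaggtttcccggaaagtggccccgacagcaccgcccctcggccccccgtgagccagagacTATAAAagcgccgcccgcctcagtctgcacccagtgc

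Positions were counted from RefSeq's start of each gene as 1. It is base 164048234 for Sele and 164115264 for Selp, the same as the start in the count table, and 21015940 for Icam1, upstream of the 21015960 of the table, so the Icam1 positions hold for RefSeq's start only. On this count the Sele window held TATAAA at -49 to -44 and AGGAAG at -65 to -60. It had no exact GGNNTTTCC, and a search for exact matches misses other forms of the kappa-B site. The Selp window had no TATAAA. It held AGGAAG at 20 to 25, the same motif on the opposite strand at -64 to -59, and GGNNTTTCC on the opposite strand at -14 to -6. The Icam1 window held TATAAA at 14 to 19 and GGNNTTTCC on the opposite strand at -153 to -145 and at -84 to -76. AGATAA was in none of the 3. Over 32851 RefSeq windows of this length, 13.6% held TATAAA, 5.82% GGNNTTTCC, 11.2% AGATAA and 35.4% AGGAAG. A match is a run of letters only, and no binding was measured.

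Sele and Selp were both lower in radiated femur. Sele (ENSMUSG00000026582, chromosome 1, 164048234 to 164057677), which encodes the E-selectin made by endothelial cells, had counts of 296, 227 and 270 without radiation and of 69, 165 and 75 with it, in libraries numbered 1, 2 and 3. Scaled to library size as CPM, they came to 8.12, 9.06 and 6.37 without radiation and 1.82, 3.09 and 1.68 with it. Each radiated library lay below each non-radiated one, and radiated library 2 was the highest of the radiated libraries.

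The mean of Sele went from 7.85 ± 1.37 to 2.20 ± 0.776 CPM (mean ± SD, n = 3 each), a log2 fold change of -1.82 (adjusted p 0.00214 in edgeR, SE 0.24). On the linear scale the level fell by 71.7%. Its call held in all 14 alternatives. It was the least abundant of the 9, and the counting error of its smallest count is 12%. Its log2 fold change had the largest SE of the 9. Radiated library 2 also held the most muscle RNA, with summed CPM of the 16 muscle genes of 5820 against 1890 and 586 in the other radiated libraries and 446 to 830 in the non-radiated ones. With that muscle sum as a covariate the log2 fold change of Sele was -2.35 (edgeR adjusted p 0.000195). The part of muscle RNA in the value of radiated library 2 was not tested.

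Selp (ENSMUSG00000026580, chromosome 1, 164115264 to 164150026), the P-selectin gene of endothelial and platelet granules, lies near Sele on the same chromosome and was at 33.6, 32.8 and 32.7 CPM in the non-radiated libraries (here and below in the order 1, 2, 3) and at 13.9, 14.2 and 12.6 CPM in the radiated ones. The libraries within a group were close together and the groups were far apart. The means were 33.0 ± 0.480 and 13.6 ± 0.883 CPM (mean ± SD, n = 3 each), a log2 fold change of -1.28 (adjusted p 1.53e-05 in edgeR, SE 0.07). This call too held in all 14 alternatives, with log2 fold changes from -1.37 to -1.09. Gm16587, annotated as antisense, and the lincRNA Gm16548 overlap Selp and had 14 to 20 and 23 to 37 counts per library, against at least 527 for Selp.

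Megakaryocyte genes fell in the same libraries. All 15 of 15 genes on the megakaryocyte and platelet list were called lower, their median being -1.45 on the log2 scale, and their summed CPM was 1910 to 1950 in non-radiated and 714 to 818 in radiated libraries. Itga2b and Clec1b, which encode platelet surface receptors, were at -1.41 and -1.45, and Tubb1, the platelet tubulin gene, at -1.47. Relative to that summed level within each library, Selp was at -5.85, -5.90 and -5.87 (log2) in the non-radiated libraries and at -5.78, -5.85 and -5.83 in the radiated ones. The group means of this ratio differed by 0.05. Abundant genes weigh most in the sum, and the most abundant on the list was Itgb3. It was at a mean of 637 CPM without and 299 CPM with radiation. Its log2 fold change of -1.09 was a smaller fall than the median of the list, and no ratio was taken without it. Relative to the summed endothelial list, Selp went from a mean of -4.34 to -5.82, a difference of -1.49. In such bulk libraries, fewer cells of a type and less RNA per cell cannot be told apart, and the part of megakaryocyte RNA in the fall of Selp was not tested.

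The same ratios for Sele had another form. Relative to the megakaryocyte list Sele was at a mean log2 ratio of -7.96 without and -8.50 with radiation, a difference of -0.54, and radiated library 2 (-8.05) lay above non-radiated library 3 (-8.23), so the groups overlapped. Relative to the endothelial list it went from -6.42 to -8.50, a difference of -2.08, with no overlap between groups.

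The 3 genes with the profile most like that of Selp over the 6 libraries, by the root mean square difference of centred log2 values, were Serpina3b (0.0407), Slc35d3 (0.0590) and Sdpr (0.0612), with log2 fold changes of -1.48, -1.48 and -1.31. Those nearest to Sele were Kcnj5 (0.160), Gp6 (0.160) and Ppbp (0.167), at -1.64, -1.63 and -1.58. Gp6 and Ppbp, a platelet collagen receptor and a platelet chemokine, are on the megakaryocyte list. Over 6 libraries in 2 groups, such likeness includes the shared difference between the groups. The values compared were log2(CPM + 0.5), and the added 0.5 shortens the differences of genes at low CPM. Sele (means of 7.85 and 2.20 CPM) and Serpina3b (4.02 and 1.43 CPM) are such genes. No ranking was made with another added value.

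**Figure D1:**
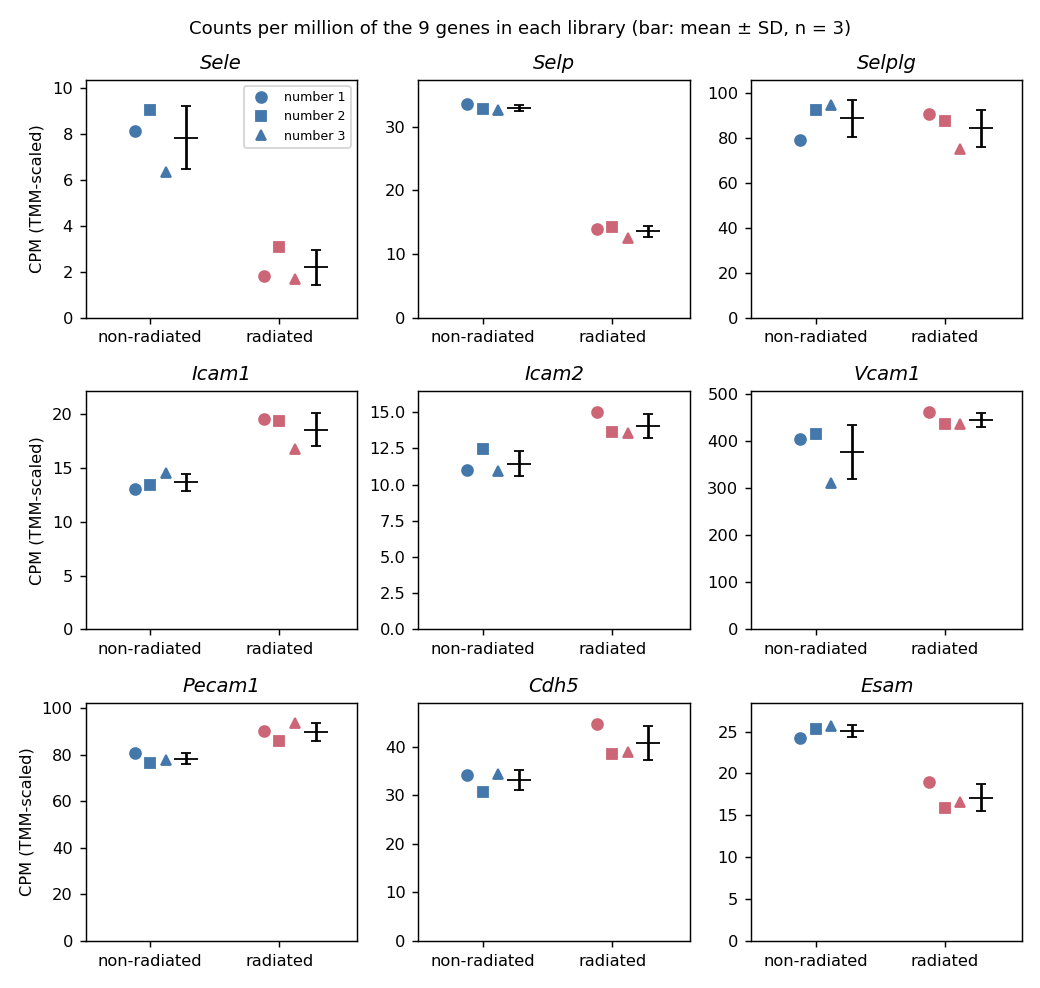
CPM (scaled by library size with TMM, axes from 0) of each of the 9 genes in the 3 non-radiated (blue) and 3 radiated (red) libraries; circles, squares and triangles are libraries numbered 1, 2 and 3, and the black bar is the mean ± SD. Sele and Selp are lower in each radiated library, at 1.68 to 3.09 and 12.6 to 14.2 CPM, and Selplg is the only gene whose groups overlap.

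Selplg (chromosome 5, 113817798 to 113830501), which encodes the PSGL-1 ligand that both selectins bind, showed no such difference. It was at 79.4, 92.6 and 94.7 CPM in the non-radiated libraries and at 90.8, 87.5 and 75.1 CPM in the radiated ones. The groups overlapped, and the mean was 88.9 ± 8.29 without and 84.5 ± 8.27 CPM with radiation (mean ± SD, n = 3 each), a log2 fold change of -0.07 (adjusted p 0.703 in edgeR, SE 0.09). Within the replicate numbers the difference was 0.19, -0.08 and -0.33, so it had no common direction. The leukocyte lists moved in opposite directions: 15 of 15 neutrophil genes had negative values, 4 of them called (median -0.36), and 13 of 13 B cell genes were called higher (median 0.76). The neutrophil count was 8 with the replicate block, 10 with no filter, 13 by DESeq2, 0 under library totals alone, and 2 without non-radiated library 2, radiated library 1 or radiated library 3. Their part in the level of Selplg was not tested.

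The other genes of selectin binding came from a list of 22. Of the 19 tested, 3 were called lower (15.8%, against 7.8% of all genes called) and 0 higher, with a median of -0.08 (log2) against 0.00 over all genes. St3gal6 and Gcnt1, which encode enzymes that build selectin-binding sugars, fell by 0.34 and 0.25 on the log2 scale (edgeR adjusted p 0.0222 and 0.0336). Cd44, whose protein can carry E-selectin ligands, fell by 0.25 (edgeR adjusted p 0.0270). The count was 6 with no filter, 7 by DESeq2, 1 with the muscle covariate and 0 under library totals alone, where the median was 0.12. With non-radiated library 1 or 2 left out 1 gene of the list was called. In those fits the adjusted p of St3gal6 was 0.0790 and 0.0848, that of Cd44 0.0886 and 0.0804, and that of Gcnt1 0.0984 and 0.103. Without radiated library 1 they were 0.0915, 0.0923 and 0.130, and 0 genes of the list were called. Cd44 was also lost without radiated library 2 (0.0878) or 3 (0.0626), and Gcnt1 without radiated library 3 (0.0628). The adjusted p of St3gal6, Cd44 and Gcnt1 was 0.0547, 0.110 and 0.0897 with the muscle covariate and 0.787, 0.906 and 0.907 under library totals alone.

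All 3 immunoglobulin-type receptors had positive log2 fold changes of under 0.5, and Icam1 alone was called. Icam1 (ENSMUSG00000037405, chromosome 9, 21015960 to 21028797), a cytokine-induced receptor for leukocyte integrins, was at 13.1, 13.4 and 14.6 CPM in the non-radiated libraries and at 19.6, 19.4 and 16.8 CPM in the radiated ones. All radiated libraries lay above all non-radiated ones, with the smallest distance between the libraries numbered 3. The means were 13.7 ± 0.788 and 18.6 ± 1.56 CPM (mean ± SD, n = 3 each), a log2 fold change of 0.44 (adjusted p 0.0195 in edgeR, SE 0.09). The call ended without non-radiated library 1 or 2 (adjusted p 0.0749 and 0.0728), without radiated library 1 or 2 (0.0905 and 0.0672), when muscle was a covariate (0.148) and under library totals alone (0.0952), over a range of 0.00198 to 0.148. The lincRNA Gm20603 overlaps Icam1 and had 39 to 81 counts per library, against at least 336 for Icam1.

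Icam2, an integrin ligand present on resting endothelium and platelets, was at 11, 12.4 and 10.9 CPM in the non-radiated libraries and at 15, 13.6 and 13.6 CPM in the radiated ones. The groups did not overlap, and the log2 fold change was 0.30 (adjusted p 0.0891 in edgeR, SE 0.09), which was not called here or in any of the 14 alternatives.

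Vcam1, the ligand of the integrin VLA-4, was the most abundant of the 9. It was at 404, 415 and 311 CPM in the non-radiated libraries and at 460, 436 and 435 CPM in the radiated ones. The non-radiated libraries were spread over a wider range than the radiated ones (57.3 against 14.1 CPM SD, n = 3 each), with library 3 the low one. The log2 fold change was 0.24 (adjusted p 0.221 in edgeR, SE 0.10), and no alternative called it. Its nearest profiles were those of Gm10863 (0.0403), Mrc1 (0.0470) and Xlr4a (0.0489). Gm10863 and Xlr4a were at means of 1.02 and 2.30 CPM without radiation, where the 0.5 added to CPM shortens differences. Mrc1 encodes the mannose receptor of macrophages and sinusoids.

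Macrophage genes were higher in the same libraries. Of 16 macrophage genes, 9 were called higher and 2 lower (median log2 fold change 0.42), and their summed CPM was 1290 to 1380 in non-radiated and 1600 to 1830 in radiated libraries. Trem2 and C1qb were higher by 0.77 and 0.60, and Cd163 was lower by a log2 fold change of -0.91. Relative to that sum, Vcam1 had a mean log2 ratio of -1.85 without and -1.94 with radiation, and Icam1 of -6.62 and -6.53. Against the endothelial list the mean log2 ratio of Vcam1 was -0.83 without and -0.79 with radiation, and that of Icam1 -5.61 and -5.37. Vcam1 thus differed little between groups relative to either sum. Relative to the marrow stroma list, where 3 of 14 genes were called higher (among them Adipoq at 1.02) and 3 lower (among them Angpt1 at -1.01 and Lepr at -0.48), Vcam1 went from -2.01 to -1.51. Most of the stroma sum was Cxcl12, at a mean of 1035 CPM without and 851 CPM with radiation. It was not called (log2 fold change -0.28, edgeR adjusted p 0.0515), so this ratio is mainly one to Cxcl12. Under library totals alone 7 macrophage and 3 stroma genes were called, and Lepr was lost (adjusted p 0.617). The part of macrophages, stroma or endothelium in the level of Vcam1 or Icam1 was not tested.

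Genes of NF-kB signalling and of the cytokines that induce adhesion molecules had calls in both directions. Of 21 tested, 14 had positive values, 4 were called higher and 1 lower, with a median of 0.13. Tnfaip3 and Nfkbie, feedback inhibitors of NF-kB, were higher by 0.37 and 0.43 (edgeR adjusted p 0.00527 and 0.0150). Il1a, encoding the cytokine interleukin-1 alpha, was lower at -0.63 (edgeR adjusted p 0.0189). With non-radiated library 1, non-radiated library 2 or radiated library 1 left out, only 1 gene of the list was called, and without radiated library 2, 3 genes. The adjusted p of Nfkbie was then 0.0598, 0.0668 and 0.0514 in the first 3 of these fits. That of Il1a was 0.0554, 0.0705 and 0.0586, and 0.0641 without radiated library 2. With the muscle covariate 2 genes of the list were called and Il1a was lost (0.122). Under library totals alone 1 was called, with Il1a at 0.572, Nfkbie at 0.0831 and Tnfaip3 at 0.133, and with no filter 8 were called.

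**Figure D2:**
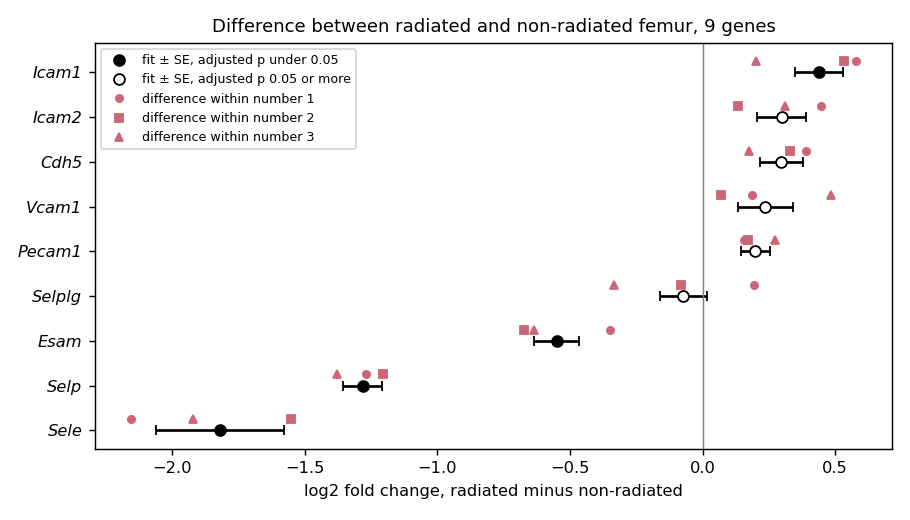
Log2 fold change (radiated minus non-radiated) of the 9 genes with its SE as a black bar, filled where the edgeR adjusted p was under 0.05; small red symbols are the differences between libraries with the same number. Sele (-1.82), Selp (-1.28) and Esam (-0.55) lie to the left of 0 with all 3 numbers, and 5 genes lie between 0.20 and 0.44.

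The 3 junction genes did not move as 1 group. Esam (ENSMUSG00000001946, chromosome 9, 37528078 to 37538319), the gene of an adhesion molecule of endothelial tight junctions and platelets, was at 24.2, 25.3 and 25.7 CPM in the non-radiated libraries and at 19.0, 15.8 and 16.5 CPM in the radiated ones. The groups were well apart. The means were 25.1 ± 0.752 and 17.1 ± 1.66 CPM (mean ± SD, n = 3 each), a log2 fold change of -0.55 (adjusted p 0.00480 in edgeR, SE 0.08). The call ended under library totals alone (log2 fold change -0.36, adjusted p 0.558, range over the alternatives 1.53e-06 to 0.558) and held in the other 13.

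Pecam1, whose CD31 protein sits in endothelial junctions and on platelets, was at 80.8, 76.3 and 77.6 CPM in the non-radiated libraries and at 90.0, 85.8 and 93.7 CPM in the radiated ones. The groups were narrow and did not overlap, with a log2 fold change of 0.20 (adjusted p 0.0581 in edgeR, SE 0.05), called in none of the 14 alternatives.

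Cdh5, the VE-cadherin gene largely restricted to endothelium, was at 34.1, 30.7 and 34.4 CPM in the non-radiated libraries and at 44.7, 38.5 and 38.8 CPM in the radiated ones. The groups did not overlap, and the log2 fold change was 0.30 (adjusted p 0.0586 in edgeR, SE 0.08). With the replicate number as a block it was called (adjusted p 0.0438), as it was with no filter on low counts (0.0251) and by DESeq2 (0.0210), over a range of 0.0210 to 0.273.

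The junction genes were also set against the endothelial list. The 25 genes of that list were all tested, 3 were called higher and 3 lower (24% called), the median log2 fold change was 0.12, and their summed CPM was 654 to 687 in non-radiated and 754 to 795 in radiated libraries. The most abundant gene of the list was Cd93, at a mean of 181 CPM without and 237 CPM with radiation. Fabp4 went from 64.3 to 93.7 CPM, so both added to the rise of the sum, and no ratio was taken without them. Relative to the sum of all 25, Pecam1 had a mean log2 ratio of -3.09 without and -3.10 with radiation, and Cdh5 of -4.34 and -4.24. The junction genes were not alone in this, as Icam2 was at -5.87 and -5.77 and Vcam1 at -0.83 and -0.79. Esam went from -4.73 to -5.49, a difference of -0.76, with no overlap between groups. Relative to the megakaryocyte list Esam went the other way, from -6.27 to -5.49, and the part of megakaryocyte RNA in its fall was not tested. Against the macrophage list Cdh5 was at -5.35 without and -5.39 with radiation, and Pecam1 at -4.10 and -4.25.

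**Figure D3:**
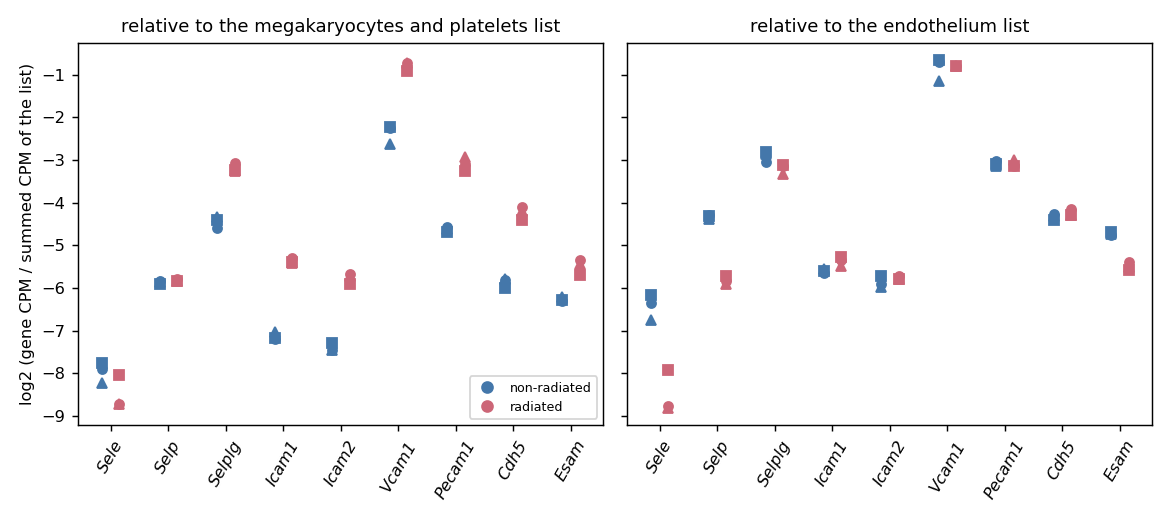
Log2 ratio of each gene's CPM to the summed CPM of the megakaryocyte and platelet list (left) or of the endothelial list (right) in each library; blue is non-radiated, red is radiated, and circles, squares and triangles are libraries 1, 2 and 3. Selp keeps a ratio of -5.90 to -5.78 to the megakaryocyte list in all 6 libraries. The group means of Selplg, Icam1, Icam2, Vcam1, Pecam1 and Cdh5 lie closer together relative to the endothelial list than to the megakaryocyte list.

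Genes of the endothelial lists outside the 9 differed among themselves in the same table. On the general list Myct1, Tek, which encodes the angiopoietin receptor Tie2, and Cd93 had the smallest p-values. Myct1 and Tek were lower at -0.95 and -0.60 (edgeR adjusted p 0.00191 and 0.00325), and Cd93 was higher by 0.39 (edgeR adjusted p 0.00582). All 3 calls ended under library totals alone (0.0766, 0.479 and 0.0909), where 2 of the 25 genes were called. The sinusoidal and venous list of 12 had 4 genes called lower and 1 higher, with a median of -0.05. Vwf, whose protein is stored with P-selectin in endothelial granules and is also made by megakaryocytes, was at 341 ± 28.0 without and 134 ± 7.17 CPM with radiation (mean ± SD, n = 3 each; log2 fold change -1.35, edgeR adjusted p 1.43e-05). Dnase1l3 and Clec4g, the latter known from liver sinusoids, were at -0.77 and -1.63 (edgeR adjusted p 0.0103 and 0.0109). On that list 3 genes were called without non-radiated library 1, without non-radiated library 2, without radiated library 1, without radiated library 3 and under library totals alone, where Dnase1l3 was lost (0.163).

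On the arterial and arteriolar list of 12, 10 values were positive, the median was 0.14, and 1 gene was called, Bmx, a kinase gene of arterial endothelium, lower at -0.36 (edgeR adjusted p 0.0290). The call ended in the fits that left out non-radiated library 1 or 2 (0.0954 and 0.0800) or radiated library 1 or 3 (0.0655 and 0.0577) and under library totals alone (0.768). DESeq2 called 2 genes of the list. Over the endothelial lists together, genes were thus called both higher and lower in radiated libraries. Some of these genes, such as Vwf, are also active in other cells, whose part was not tested. The summed arterial CPM, at 111 to 128 and 119 to 136, overlapped between groups.

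Of 19 other junction and transmigration genes tested, 1 was called higher and 2 lower, with a median of -0.03. Mcam, the CD146 gene of endothelium and pericytes, rose from 12.1 ± 2.02 to 20.7 ± 2.03 CPM (mean ± SD, n = 3 each; log2 fold change 0.77, edgeR adjusted p 0.00639). F11r, encoding the junctional molecule JAM-A that platelets also carry, fell from 16.6 ± 0.465 to 9.72 ± 0.420 CPM (mean ± SD, n = 3 each; log2 fold change -0.77, edgeR adjusted p 0.000710). Alcam was lower at -0.39 (edgeR adjusted p 0.0134), a call lost without radiated library 1 (0.0567), with the muscle covariate (0.0530) and under library totals alone (log2 fold change -0.18, adjusted p 0.758). The call of F11r was lost under library totals alone (log2 fold change -0.57, adjusted p 0.185), where 1 gene of the list was called. DESeq2 called 5.

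The list of leukocyte integrins and the proteins that switch them on had 15 genes tested, of which 5 were called lower (33.3%) and 0 higher, with 13 negative values and a median of -0.22. The chains of the integrins that bind the Icam and Vcam1 proteins were not among those called, with edgeR adjusted p of 0.149 for Itgal, 0.0723 for Itgam, 0.141 for Itgb2, 0.728 for Itga4 and 0.0862 for Itgb1. The 5 called were Itga6, Rap1b, Fermt3, Tln1 and Rasgrp2. Itga6, a laminin-binding integrin chain, fell from 167 ± 5.79 to 89.1 ± 2.26 CPM (mean ± SD, n = 3 each; log2 fold change -0.91, edgeR adjusted p 1.51e-05). Rap1b and Fermt3, whose products activate integrins in platelets and leukocytes, fell by 0.65 and 0.48 on the log2 scale (edgeR adjusted p 0.000810 and 0.0151). Without non-radiated library 2, 2 genes of the list were called and Fermt3 was lost (0.0523), and without radiated library 1 or radiated library 3, 3 genes were called. DESeq2 called 8. Under library totals alone 1 gene was called, the median was -0.03, and Rap1b (0.251) and Fermt3 (0.659) were lost.

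**Figure D4:**
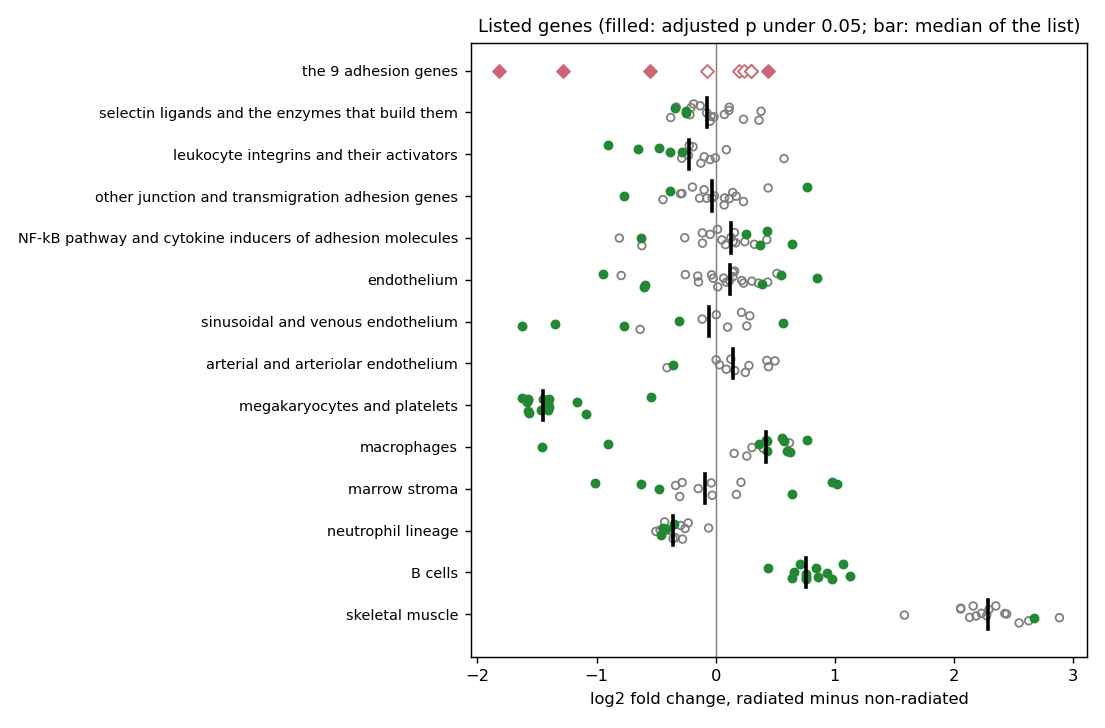
Log2 fold change (radiated minus non-radiated) of every tested gene of 13 lists and of the 9 adhesion genes (diamonds, top row); filled symbols had an edgeR adjusted p under 0.05, and the black bar is the list's median. The 9 genes spread from -1.82 to 0.44, the megakaryocyte genes have a median of -1.45, and the endothelial list has a median of 0.12.

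Levels of different genes were compared as TMM-scaled CPM per kilobase of gene length. In non-radiated femur the order was Vcam1 at 111 ± 16.9, Selplg at 34.1 ± 3.18, Pecam1 at 12.6 ± 0.377, Esam at 8.74 ± 0.262, Cdh5 at 8.30 ± 0.523, Selp at 7.48 ± 0.109, Icam2 at 6.01 ± 0.442, Icam1 at 5.39 ± 0.310 and Sele at 2.70 ± 0.469 (CPM per kilobase, mean ± SD, n = 3). The ranges of the neighbours Esam and Cdh5 overlapped, as did those of Icam2 and Icam1. The other neighbours in this order did not overlap.

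In radiated femur the order by the same scale was Vcam1 at 131 ± 4.15, Selplg at 32.4 ± 3.18, Pecam1 at 14.4 ± 0.636, Cdh5 at 10.2 ± 0.870, Icam2 at 7.38 ± 0.431, Icam1 at 7.31 ± 0.612, Esam at 5.97 ± 0.577, Selp at 3.08 ± 0.200 and Sele at 0.755 ± 0.266 (CPM per kilobase, mean ± SD, n = 3). Icam2 and Icam1 again overlapped, and Icam1 and Esam did too. Esam and Selp stood above Icam2 and Icam1 without radiation and below them with it, although in radiated femur Esam overlapped with Icam1. Vcam1, Selplg and Pecam1 kept the first 3 places and Sele the last.

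Muscle RNA differed between the radiated libraries, with summed CPM of 5820 in library 2 and 586 in library 3, the latter within the non-radiated range of 446 to 830. Among Icam1, Icam2, Vcam1, Pecam1 and Cdh5, none was highest in radiated library 2, and radiated library 3 lay above all non-radiated libraries for each. Radiated library 1, with a muscle sum of 1890, was the highest radiated library for Icam1, Icam2, Vcam1 and Cdh5. The part of muscle RNA in these values was not tested. All 16 muscle genes had positive log2 fold changes (median 2.28), and 1 was called. The count was 13 with the replicate block or without radiated library 3, 16 under library totals alone or with no filter, and 0 by limma-voom or without radiated library 2 or any 1 of the non-radiated libraries. The gene called was Mylk2, a muscle kinase gene (edgeR adjusted p 0.0374, lost without each of non-radiated libraries 1, 2 and 3 at 0.117, 0.120 and 0.105, without radiated library 1 or 2 at 0.0713 and 0.0511, by limma-voom at 0.237 and with the muscle covariate at 0.221). With the muscle sum as a covariate the log2 fold changes were 0.35 for Icam1, 0.27 for Icam2, 0.19 for Vcam1, 0.26 for Pecam1 and 0.32 for Cdh5, none of them called, and -1.37 for Selp and -0.52 for Esam, both called. Without radiated library 2, the one with the most muscle RNA, the muscle median was 0.99.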

How the data were processed

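RNA-seq gene counts of 3 radiated and 3 non-radiated mouse femur libraries were used, grouped by their labels. Per the submitters' processing notes, bcl2fastq, STAR 2.5.2b, Subread, featureCounts and mm10 were used for the deposited values; annotation release and strand setting are not given in the sources used here. Per the file headers, the table holds whole-number counts and RPKM from the authors in 1 column per library. RPKM was not used, since the total it was scaled by is not stated. The test was that of edgeR 4.0.16, run in R 4.3.3, with filterByExpr (minimum count 10, minimum total 15), TMM scaling, glmQLFit and glmQLFTest with the group as the only term, and Benjamini-Hochberg adjustment over all 18757 genes tested. CPM is TMM-scaled, and an SE is the size of the log2 fold change over the root of F. The code of the fit was also run on simulated counts with the same dispersion for every gene, no pairing and no difference in muscle RNA. That run checks the code only and cannot show how the test performs in these libraries.

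The 9 genes and the 13 lists (218 entries, 3 found through their gene ID) were chosen with earlier results of these data known. Named genes were the 9, up to 3 called genes with the smallest p in each list, the 3 nearest profiles (log2(CPM + 0.5), mean of at least 1 CPM) for Sele, Selp and Vcam1, and genes that overlap the 9. Genes the rule names in the neutrophil and B cell lists are given by their counts. List counts came from the same fit, with no set test. Nothing in the labels says that libraries of a group came from separate animals, so p-values measure only the spread between these libraries. Replicates of a group differed by more than sampling noise (chi-square per degree of freedom 16.6 to 580). The values of 580 and 492 were those of the pairs with non-radiated library 2, where AY036118 took 32.9% of the counts. The part of that row in them was not tested.

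Both groups carry numbers 1 to 3 on opposite legs. Deviations from the group means correlated at 0.226, 0.419 and 0.236 across genes for the same numbers and between -0.264 and 0.0276 for different ones. Deviations within a group cancel out for each gene, so the values for same and different numbers depend on each other. The labels do not say that equal numbers mark the same animal. The numbers were taken to pair the libraries on this ground, while the main fit and its calls leave the pairing out. The highest correlation, 0.419, was that of number 2, whose libraries held the most muscle RNA of each group (summed CPM 830 and 5820). The part of muscle RNA in these correlations was not tested. Alternatives were a fit with the number as a replicate block, limma-voom (limma 3.58.1), the Wald test and the size factors of DESeq2 1.42.0, scaling by library totals alone, no filter or one on mean CPM (1 or more), the muscle covariate, and each library left out in turn.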

Additional observations from a re-analysis of the deposited data

How the results depend on the processing

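Over 14 alternatives, the 9 genes kept their sign in all fits except Selplg, which was at 0.13 under library totals alone and ran from -0.15 (without non-radiated library 1) to 0.0041 (without radiated library 3) over the fits that left out single libraries. Of the 9 genes, 4 were called, and 2 under library totals alone (Sele and Selp). Leaving out each library in turn gave 3 to 4 of the 9. With the replicate block, which follows the pairing of the numbers, 5 of the 9 were called, the additional one being Cdh5 (adjusted p 0.0438), and 1670 genes in all; among the 9 and the named listed genes called without it, the block changed no other call. The count of all called genes was 1463, and 972 with the muscle covariate. It ran from 764 (without radiated library 1) to 1376 (without non-radiated library 3) when single libraries were left out, passing 819 for non-radiated library 2 and 905 for non-radiated library 1. Listed genes called were 78, and 57 to 83 with single libraries left out. Under library totals alone the medians of the selectin ligand, junction, sinusoidal and stroma lists turned positive, at 0.12, 0.16, 0.13 and 0.0998. With single libraries left out the junction median ran from -0.12 to 0.0047, positive without non-radiated library 3. The sinusoidal one ran from -0.11 to 0.0193, positive without non-radiated library 3 or radiated library 3 (0.0012), and was 0.0082 under the filter on mean CPM. With the muscle covariate the muscle median was -0.19, by construction. There were 573 pairs of an alternative and a named called gene outside the 9, from the lists or the nearest profiles. Of these, 512 kept the call and all kept the sign. The cause of the other changes was not tested.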
